A study of Mus musculus with 6 samples.

Results

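The comparison described here set B16F10 cells kept for 48 h with the compound SQ-diEG (di-sq) at 40 µM against cells kept in medium alone, with 2 arrays in each group, which are 4 of the 6 arrays of the series. Arrays were chosen by their titles. The remaining pair had received 2.5 µM of the same compound for 48 h, and its values are given only where they bear on the 40 µM result. B16F10 is a pigmented, metastatic line of mouse melanoma, here grown in RPMI1640 medium in 6-well plates and treated 24 h after seeding, without a transgene or a change of genotype. The compound is known here by its code names only, and the labels name no solvent for the control medium. The description fields of both 40 µM arrays and of 1 of the 2.5 µM arrays name a different treatment, and that of the other 2.5 µM array names medium. Titles, source names and treatment fields, which match each other, were followed. Whether both arrays of a group stem from independent cultures is not stated, and p-values therefore measure a spread that may be technical.

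Each value is a log2 expression level from robust multi-array averaging (RMA), and a difference of 1 is a 2-fold change. Of 19505 named genes, each represented by 1 probe set, 4336 had a mean above background in at least 1 of the 2 groups, where background is the 95th percentile of features that serve as negative controls, 9.94 as a mean over the 6 arrays. The gene just inside this limit was Nemf, at a group mean of 9.9405, and the gene just outside was Taf5l, at 9.9387. Both group means were above background in 3901 of the 4336 genes, and the others passed through their higher group only. In 2182 of the 4336 genes, both 40 µM arrays lay on the same side of both controls, so that the groups did not overlap. These 2182 genes, called separated genes below, and the fixed pathway lists that hold some of them are what is described. Being separated is how they were chosen, so their differences are descriptions and no test of the 40 µM effect. The space between the groups, from the nearest array of one to the nearest array of the other, is called the gap. It was as small as 0.0004 among genes higher at 40 µM and 0.0001 among genes lower, with medians of 0.156 and 0.157.

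Melanoma cells make large amounts of glycosylated membrane and melanosomal protein, which folds in the endoplasmic reticulum (ER) with the help of chaperones and disulfide isomerases. When unfolded protein builds up there, the factors ATF6 and XBP1 bind the ER stress element in the promoters of chaperone genes, and the kinase PERK raises ATF4 and CHOP. Electrophiles and oxidants act through another factor, NRF2, which binds the antioxidant response element of genes for glutathione, thioredoxin and NADPH supply. Sterols control SREBP2, which drives cholesterol synthesis, and the liver X receptors (LXR), which drive efflux.

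The 2 arrays at 40 µM differed from each other more than the controls did. Across genes the correlation was 0.983 between the 40 µM arrays and 0.998 between the controls, and the median SD of a gene above background was 0.286 and 0.052 (n = 2 each). Replicate 1 at 40 µM was low in hybridisation spike-in controls, at a mean of 10.296 against 10.856 and 10.897 on the medium arrays. Replicate 2 at 40 µM was the highest of the 6 arrays, at 11.154. The 2.5 µM replicate 1 was low as well, at 10.434, and the 2.5 µM replicate 2 was at 10.824. Poly-A spike-in controls were at 5.63 and 7.415 on the 40 µM arrays, against 6.346 and 6.391 on the medium arrays. Both 40 µM arrays thus departed from the medium arrays, in opposite directions. The spread of genes on 40 µM replicate 1 was wide too, with an interquartile range of 5.435 against 4.896 and 4.903 in the controls. Separated genes lay further from the controls on replicate 1 than on replicate 2 in 927 of 1186 genes higher at 40 µM and in 716 of 996 genes lower. Both 40 µM arrays are therefore given separately throughout, replicate 1 first.

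**Figure D1:**
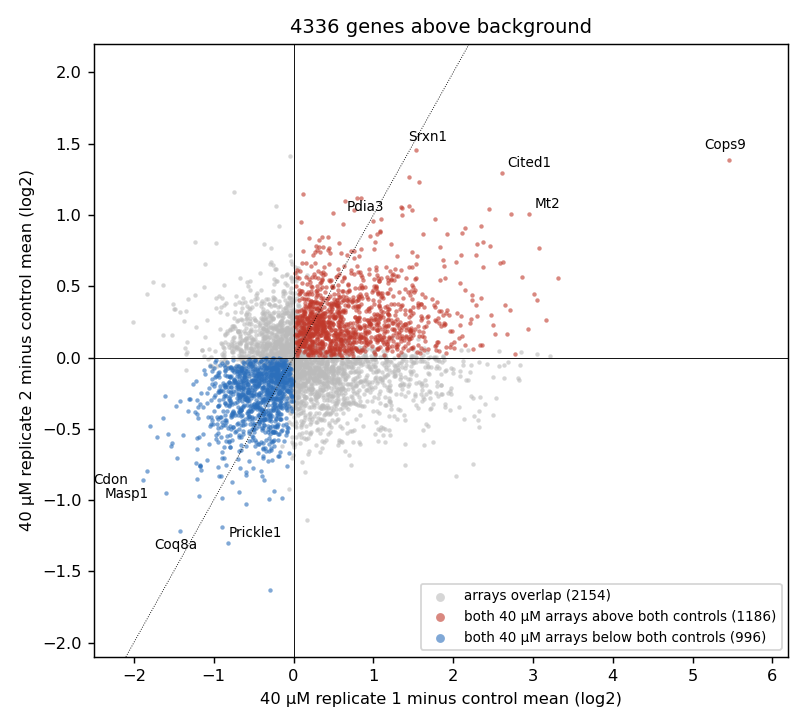
Each point is 1 of the 4336 genes above background, placed by its difference from the control mean on 40 µM replicate 1 (horizontal, log2) and on replicate 2 (vertical, log2). Red points are the 1186 genes with both 40 µM arrays above both controls, blue points the 996 with both below, grey points the 2154 that overlap, and the dotted line marks equal differences. The cloud is stretched along the horizontal axis, and Srxn1, Pdia3, Coq8a and Prickle1 are among the labelled genes close to the dotted line.

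Of the 4336 genes above background, 1186 (27.4%) were separated with higher values at 40 µM and 996 (23%) with lower values. Counts of separated genes in the gene lists below are to be read beside these shares. A difference of at least 2-fold between the means was seen in 101 of them (2.33%) with higher values and in 15 (0.346%) with lower values. Over all 19505 genes, with no limit on level, 4326 (22.2%) were higher and 5119 (26.2%) lower without overlap, and 304 (1.56%) and 196 (1%) were so with at least 2-fold. The split between higher and lower depended on scaling. Higher genes were 54.4% of the separated genes as deposited, 40.9% after quantile normalization of the gene values and 60.2% after centring each array on its median, and the median difference of genes above background was 0.061, -0.06 and 0.098. The number of 2-fold genes rested on replicate 1. Of the same 4336 genes, 636 lay at least 2-fold above the control mean on replicate 1 and 21 on replicate 2. At least 2-fold below it lay 92 and 6. With genes above background taken anew from the controls and 1 treated array, replicate 1 gave 789 separated 2-fold genes higher and 92 lower. Replicate 2 gave 16 and 6 in the same way. A limma fit over all 6 arrays with Benjamini-Hochberg adjustment over 19505 genes passed 0 genes (0%) at 0.05, with a smallest adjusted p of 0.334. At an unadjusted p under 0.05 it gave 1011 genes higher (5.18%) and 1338 lower (6.86%). Without 40 µM replicate 2, genes did pass the same fit, but the 1 treated array left adds no spread to it. Counts from fits with 1 array in a group are therefore not given.

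Among separated genes, 12 lay at least 2-fold above the control mean on each of the 40 µM arrays, namely Cops9, Srxn1, Pgd, Cited1, Fryl, Pdia3, Slc40a1, Mt2, Ergic3, Sqle, Creld2 and Osgin1, and Coq8a lay at least 2-fold below it on each. By known function they belong to redox defence (Srxn1, Pgd, Osgin1, Mt2), iron export (Slc40a1), the ER and early secretory pathway (Pdia3, Creld2, Ergic3) and sterol synthesis (Sqle). The others were Cops9, a small subunit of the COP9 signalosome, Cited1, a transcriptional coactivator, and Fryl, a large scaffold protein. Cops9, Cited1, Fryl, Slc40a1, Sqle, Creld2 and Osgin1 had control means below 9.94 and passed the background limit only through the 40 µM group. Of these, Cops9, Slc40a1, Sqle, Creld2 and Osgin1 were below that level on 40 µM replicate 2 too. Coq8a passed only through the controls.

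**Figure D2:**
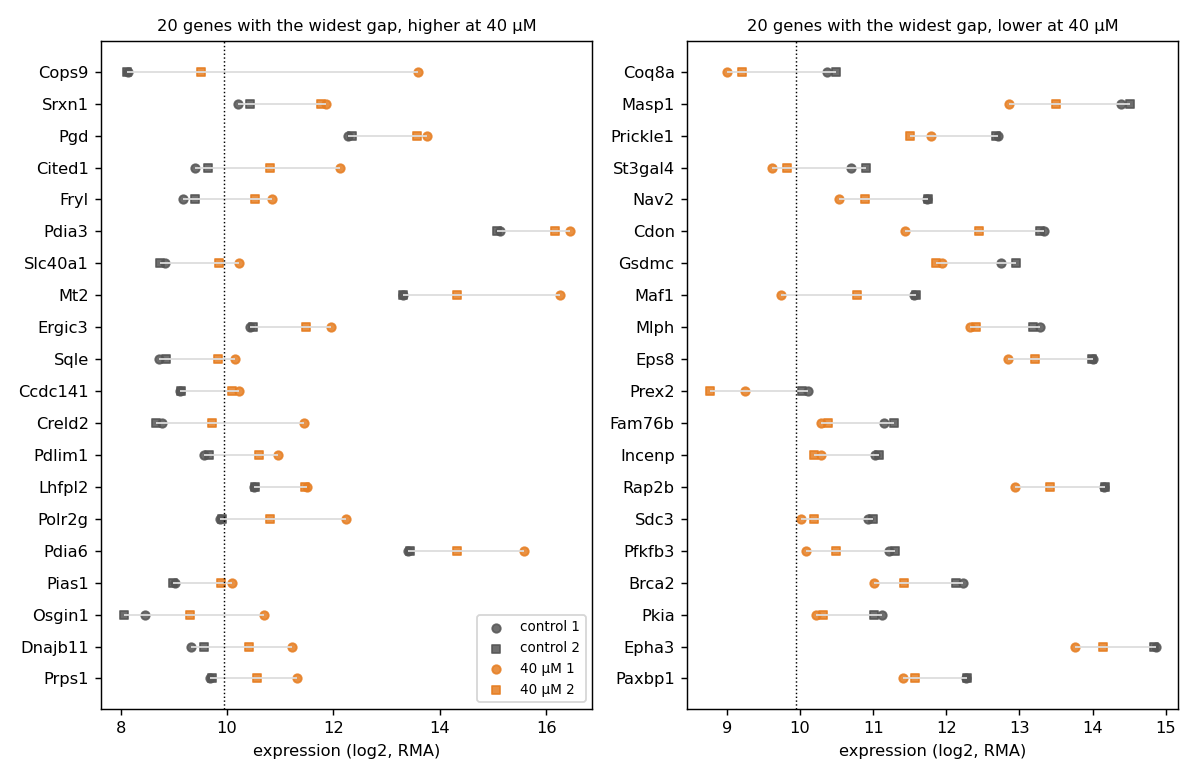
Log2 expression on each control array (grey) and each 40 µM array (orange) for the 20 separated genes with the widest gap in each direction, circles for replicate 1 and squares for replicate 2, with a grey line joining the lowest and highest array of a gene. The dotted vertical line is the background level of 9.94. Cops9 at the top left has the widest distance between its 40 µM arrays, at 13.59 and 9.51, whereas those of Srxn1, at 11.85 and 11.78, nearly coincide.

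Redox genes supplied several of the widest gaps. Srxn1, sulfiredoxin, which restores overoxidised peroxiredoxins, was at 10.21 and 10.43 in the controls and at 11.85 and 11.78 at 40 µM, a log2 difference of 1.49 (SE 0.19) or 2.81-fold. Both 40 µM arrays stood well clear of the controls and close to each other. Pgd, phosphogluconate dehydrogenase of the NADPH-forming pentose phosphate pathway, was at 12.27 and 12.35 in the controls and at 13.76 and 13.57 at 40 µM, 2.56-fold higher. Osgin1, an oxidative stress-induced growth inhibitor, was at 8.45 and 8.06 against 10.70 and 9.30, so that replicate 2 was still below the background level. Gsr, glutathione reductase, was at 12.39 and 12.31 against 13.58 and 13.14. Txnrd1, cytosolic thioredoxin reductase, was at 16.47 and 16.54 against 17.35 and 17.26, a difference of 0.80 (SE 0.15). Like Srxn1, it had nearly the same level on both 40 µM arrays. Gclm, the modifier subunit of the enzyme that limits glutathione synthesis, was at 13.21 and 13.27 against 14.43 and 13.79. Ephx1, microsomal epoxide hydrolase, was at 11.65 and 11.51 against 12.62 and 12.45.

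Other redox genes had narrower gaps, overlapped or stayed below background, and some were far apart on the 2 treated arrays. Mgst1, a microsomal glutathione transferase, was at 9.12 and 9.02 in the controls and at 12.09 and 9.51 at 40 µM, so that its 3.32-fold difference came mostly from replicate 1. Cat, catalase, was at 13.92 and 13.83 against 14.70 and 14.30. Me1, the cytosolic malic enzyme that forms NADPH, was at 11.84 and 11.94 against 12.94 and 12.19. Hmox1, heme oxygenase 1, overlapped: its controls were at 17.33 and 17.28, and its 40 µM arrays lay on either side of them at 17.02 and 18.07. Its difference of 0.24 had a 95% confidence interval from -0.51 to 0.99 (limma), and without replicate 2 it was -0.288. Nqo1, a quinone reductase, stayed below background on every array, at 6.26 and 6.28 against 8.27 and 6.94.

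The redox lists as wholes leaned the same way, chiefly on replicate 1. In glutathione synthesis and recycling, 8 of 14 members above background were separated as higher and 0 as lower, and the median over all 28 measured members was 0.671 on replicate 1 and 0.093 on replicate 2. The NRF2 detoxification and iron list had 8 higher and 3 lower of 13, with medians of 1.041 and 0.143 over 23 members. Thioredoxins and peroxiredoxins had 5 higher and 1 lower of 11, with medians of 0.833 and 0.059, and NADPH supply had 3 higher and 0 lower of 6, with 0.650 and 0.001. Over all 19505 genes the corresponding medians were -0.043 and -0.011. Among all genes above background, 27.4% were separated as higher and 23% as lower. The difference between the treated arrays in these lists moves with the spike-in levels given above, whose part in the result was not tested.

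Metal-handling genes included large differences at few loci. Mt2, a metallothionein that binds zinc and copper, was at 13.31 on both controls and at 16.26 and 14.32 at 40 µM, 3.94-fold higher in the mean. Mt1, its close paralogue, whose probes may share signal with those of Mt2, was at 14.98 and 14.96 against 18.04 and 15.74. Both had their treated arrays above the controls, with replicate 1 far above replicate 2. The 2.5 µM arrays showed the same order for Mt2, at 14.95 on replicate 1 and 13.18 on replicate 2. Slc40a1, ferroportin, the cellular iron exporter, was at 8.84 and 8.74 against 10.23 and 9.85, close to background at 40 µM and below it in the controls. Slc39a7, which releases zinc from the ER, was at 9.75 and 9.84 against 10.43 on both. The metallothionein and zinc list had 5 higher and 1 lower of 12 above background, with a median of 0.087 over 20 members that turned to -0.026 after quantile normalization.

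Genes of the ER folding machinery were higher in the largest share of any list with more than 10 members above background. The lists were chosen with earlier results of these data known, so this rank is a description only. Of 18 chaperones and disulfide isomerases above background, 15 were separated as higher and 0 as lower, and the remaining 3 overlapped. Over all 25 measured members, the median difference was 1.106 on replicate 1 and 0.490 on replicate 2, and 0.373 and 0.131 on the 2.5 µM arrays. Pdia3, a disulfide isomerase that works on glycoproteins, was at 15.13 and 15.08 in the controls and at 16.45 and 16.16 at 40 µM, a log2 difference of 1.20 (SE 0.17). Pdia6, another isomerase, was at 13.40 and 13.44 against 15.57 and 14.32. Both had their 2 treated arrays above both controls, with replicate 1 further away. Creld2, a secreted and ER-resident disulfide isomerase, was at 8.77 and 8.66 against 11.44 and 9.72. Of these arrays only 40 µM replicate 1 was above background. Dnajb11, a cochaperone of BiP, was at 9.32 and 9.57 against 11.22 and 10.42. Hspa5, which encodes BiP itself, the main ER chaperone, was at 18.92 and 18.98 against 19.51 and 19.42, near the top of the scale, which ended between 19.71 and 19.88 on the 6 arrays. Saturation of its probes was not tested.

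The promoters of these genes were searched for the ER stress element in RefSeq windows (GRCm38.p6) from 250 bases before to 50 bases after the start of the gene. The letters searched were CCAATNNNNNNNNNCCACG on either strand, where N is any base; the element contains a CCAAT box. Of 15691 measured genes with a window, 28 (0.178%) held it, and 9 of 3605 above background did (0.25%). Those 9 comprised 7 of 981 separated genes higher at 40 µM (0.714%), 0 of 835 separated genes lower, and Canx and Pan2, which overlapped. The windows below show the element in the 6 chaperone and folding genes among the 7 higher genes. Canx, also a chaperone, overlapped and was therefore not among the genes that could be shown. Windows read 5′ to 3′ on the strand of the gene, with the element in capitals. In Creld2 and Calr it lies on the opposite strand and reads as CGTGG and ATTGG at its ends.
Creld2: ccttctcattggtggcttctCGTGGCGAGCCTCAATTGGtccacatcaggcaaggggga
Pdia6: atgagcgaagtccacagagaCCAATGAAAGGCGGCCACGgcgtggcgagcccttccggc
Hsp90b1: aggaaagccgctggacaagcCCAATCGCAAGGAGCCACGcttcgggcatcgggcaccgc
Calr: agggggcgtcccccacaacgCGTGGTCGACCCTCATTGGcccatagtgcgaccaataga
Hspa5: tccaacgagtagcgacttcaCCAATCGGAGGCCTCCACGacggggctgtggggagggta
Dnajc3: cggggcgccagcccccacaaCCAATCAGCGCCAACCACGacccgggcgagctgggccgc
The stretch shown for Creld2 is chr15:88819500-88819558 (plus strand), with the element from 126 to 108 bases before the start. That for Pdia6 is chr12:17266471-17266529 (plus, 98 to 80 bases), and that for Hsp90b1 chr10:86705618-86705676 (minus, 212 to 194 bases). Those for Calr, Hspa5 and Dnajc3 are chr8:84847055-84847113 (minus, 162 to 144), chr2:34772005-34772063 (plus, 65 to 47) and chr14:118937807-118937865 (plus, 105 to 87). A match describes these letters in the window and does not show binding.

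The 6 genes printed above were taken from the separated genes higher at 40 µM, so their direction is no result. Their differences were unequal. Hsp90b1, the ER paralogue of HSP90 (GRP94), was at 16.23 on both controls and at 18.06 and 17.00 at 40 µM. Calr, calreticulin, a calcium-binding lectin chaperone, was at 18.05 and 17.97 against 18.83 and 18.50. Dnajc3, a cochaperone that restrains PERK, was at 12.69 and 12.50 against 13.42 and 12.80. Creld2 and Pdia6 had the widest differences, 1.87 (SE 0.51) and 1.53 (SE 0.38), and Hspa5 and Dnajc3 the smallest of the 6, at 0.52 (SE 0.13 and 0.24). Xlr3a, an X-linked lymphocyte-regulated gene with near-identical copies whose probes may share signal, was at 11.16 and 11.11 against 12.08 and 11.75. Canx, calnexin, the membrane-bound partner of calreticulin, was at 15.79 and 15.75 against 16.18 and 15.77, so that replicate 2 lay between the controls. Pan2, a deadenylase subunit, was at 9.88 and 10.14 against 9.77 and 10.63, with its treated arrays on either side of the controls.

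**Figure D3:**
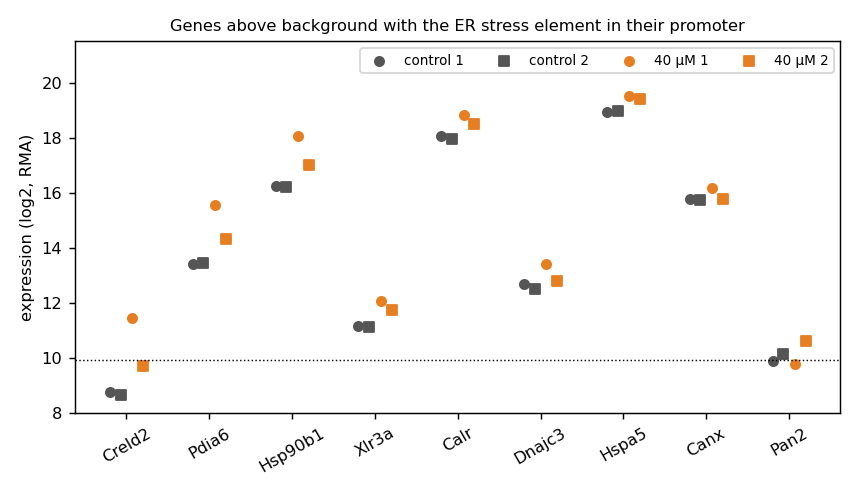
Log2 expression on each control array (grey) and each 40 µM array (orange), circles for replicate 1 and squares for replicate 2, for the 9 genes above background whose promoter window holds the ER stress element, in order of their difference. The dotted line is the background level of 9.94. The treated arrays lie above both controls for the 7 genes from Creld2 to Hspa5 and not for Canx and Pan2.

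In the list of ATF4, CHOP and XBP1 factors, the transcriptional arm of the stress response, 5 of 17 members above background were separated as higher and 2 as lower, the higher share being near the 27.4% of all genes above background, and the median over 20 members was 0.011, or -0.049 after quantile normalization. Xbp1 was at 13.06 and 12.86 in the controls and at 13.76 and 13.23 at 40 µM. Atf4 was at 16.65 and 16.56 against 16.80 and 16.81, a difference of 0.20 with a 95% confidence interval from -0.14 to 0.54. Ddit3, which encodes CHOP, overlapped at 14.51 and 14.49 against 14.75 and 14.40, with an interval from -0.36 to 0.51, and its sign turned without replicate 1 (-0.100) and with the array split by spike-in level as a block (-0.045). Atf3, a stress-induced repressor, was at 11.10 and 11.22 against 11.37 and 11.69. Trib3, a pseudokinase induced through CHOP, was separated as lower, at 14.74 and 14.90 against 14.57 and 14.45.

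Other lists of the secretory route held more higher than lower genes as well. The list of ER translocation and oligosaccharyltransferase genes, which bring proteins into the ER and attach sugars to them, had 22 higher and 1 lower of 31 above background, with medians over 33 members of 0.759 on replicate 1 and 0.136 on replicate 2. Srp72, a subunit of the signal recognition particle, was at 14.08 and 13.99 in the controls and at 14.83 and 14.68 at 40 µM, with little spread at either dose. Ddost, of the oligosaccharyltransferase, was at 12.09 and 12.05 against 13.59 and 12.62. Ssr2, of the translocon-associated complex, was at 14.63 and 14.87 against 15.78 and 15.37. The list of COPI, COPII and cargo receptors, the coats and receptors of vesicles between ER and Golgi, had 19 higher and 2 lower of 25, with medians over 36 members of 0.649 and 0.261. Ergic3, a cargo receptor of this route, was at 10.43 and 10.48 against 11.95 and 11.49, 2.40-fold higher. Kdelr2, which returns ER proteins from the Golgi, was at 12.81 and 12.90 against 14.16 and 13.57. Tmed2, a p24 cargo receptor, was at 14.36 and 14.31 against 15.64 and 14.91, and Copz1, a COPI subunit, at 12.79 and 12.65 against 13.36 and 13.28.

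In the list from squalene to cholesterol, 4 of 6 members above background were separated as higher and 0 as lower, with medians over 9 members of 0.887 on replicate 1 and 0.237 on replicate 2. Sqle, squalene epoxidase, which performs the oxygen-requiring step that commits squalene to sterols, was at 8.72 and 8.86 in the controls and at 10.14 and 9.84 at 40 µM, 2.30-fold higher. Only its replicate 1 level at 40 µM exceeded the background level. Cyp51, lanosterol demethylase, was at 12.04 and 12.09 against 12.57 and 12.44, and Nsdhl, a sterol dehydrogenase, at 10.04 and 10.01 against 11.06 and 10.26. In the mevalonate arm before squalene, 0 of 5 members above background were higher and 1 was lower, while over all 13 measured members, most of them below background, 5 were higher and 1 lower without overlap. The difference between these lists was not tested. The mevalonate median over 13 members, 0.332, turned to -0.020 without replicate 1. The lower member was Srebf2, which encodes SREBP2, at 14.83 on both controls against 14.35 and 14.81, a difference of -0.25 with an interval from -0.72 to 0.22.

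Among LXR targets and efflux genes, 5 of 9 above background were higher and 1 lower, with a median over 14 members of 0.338 on replicate 1 and 0.064 on replicate 2. Abca1, the cholesterol exporter, had the widest gap of all named genes, at 8.11 and 7.92 against 9.64 and 9.53, but every array was below the background level. Lpcat3, which puts polyunsaturated chains into phospholipids, was at 14.32 and 14.22 against 15.36 and 15.16. Its 2.5 µM arrays, at 15.04 and 14.78, lay between the other groups. Mylip, a ubiquitin ligase that degrades lipoprotein receptors, was at 10.47 and 10.20 against 11.55 and 10.94. Lipa, the lysosomal lipase that frees cholesterol from its esters, was at 10.87 and 10.62 against 11.70 and 11.60. Npc2, which hands that cholesterol on, was at 10.43 and 10.49 against 10.95 and 10.77.

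Fatty acid synthesis had 5 higher and 1 lower of 15 above background, with a median over 20 members of 0.292. Its higher share was near the 27.4% of all genes above background, and its lower share was below their 23%. Hsd17b12 and Tecr, which act in fatty acid elongation, were at 10.50 on both controls against 11.53 and 10.99, and at 9.82 and 9.80 against 10.99 and 10.07. Fatty acid oxidation had 4 higher and 1 lower of 8, and its median of 0.216 turned to -0.011 without replicate 1. Decr1, a reductase for unsaturated acyl chains, was at 9.28 and 9.17 against 10.28 and 9.80. Etfdh, which passes electrons from oxidation to ubiquinone, was at 11.33 and 11.30 against 11.60 and 12.10, with replicate 2 further out. Sphingolipid metabolism had 6 higher and 2 lower of 14 (median 0.214 over 24 members), with ceramide synthase Cers2 at 13.41 and 13.45 against 13.77 and 13.72. On the lower side, Cerk, ceramide kinase, was at 11.40 and 11.52 against 10.55 and 11.04, and Cert1, which carries ceramide out of the ER, at 12.00 and 12.13 against 11.66 and 11.80. Peroxisomal genes had 1 higher and 1 lower of 7. The lower was Pex14, part of the peroxisomal docking complex, at 11.22 and 11.18 against 9.49 and 10.64.

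For the large mitochondrial and protein-turnover complexes, the list medians were high on replicate 1 and near 0 on replicate 2. Respiratory chain and ATP synthase genes had 26 of 64 members above background separated as higher and 0 as lower, yet the median over 96 members was 1.098 on replicate 1 and 0.002 on replicate 2. On the 2.5 µM arrays it was 0.625 and -0.161, so the replicate 1 array of each dose, both low in spike-in controls, was the higher. Mitochondrial ribosomal proteins had 10 higher and 2 lower of 23 (medians 0.964 and 0.055 over 76 members), the citric acid cycle 9 and 1 of 18 (0.900 and 0.046 over 23), and mitochondrial import 5 and 2 of 18 (0.699 and -0.085 over 38). The proteasome had 14 and 3 of 36 (0.868 and 0.000 over 50). Cytosolic ribosomal proteins had 18 and 4 of 60, with medians over 64 members that differed in sign between the arrays, 0.754 and -0.100. Translation factors had 15 and 5 of 42 (median 0.282 over 61), aminoacyl-tRNA synthetases 5 and 1 of 18 (0.174 over 35), and heat shock chaperones and TRiC 4 and 1 of 18 (0.314 over 29). Among all genes above background, 27.4% were higher and 23% lower. Mitochondrial import, cytosolic ribosomal proteins, aminoacyl-tRNA synthetases and heat shock chaperones were near that higher share, with lower shares below 23%.

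Single genes of these complexes show the pattern. Psma3, a proteasome core subunit, was at 9.30 and 9.41 in the controls and at 12.06 and 9.69 at 40 µM. Ndufb4b, a complex I subunit with a near-identical copy, was at 9.78 and 9.66 against 12.34 and 10.39, and Tcp1, of the TRiC chaperonin, at 11.24 and 11.39 against 13.17 and 11.54. In each the groups were separated although most of the difference came from replicate 1. Others had similar values on both treated arrays. Ndufb6 of complex I was at 10.04 and 10.02 against 11.04 and 10.84, Sdhc of complex II at 10.11 and 10.23 against 10.74 and 10.68, and Psmd4, the proteasome ubiquitin receptor, at 12.19 and 12.13 against 12.64 and 12.50. Aimp2, a scaffold of the tRNA synthetase complex, was at 9.77 and 9.76 against 10.30 and 10.33. Outside these complexes, Prps1, which makes the ribose phosphate for nucleotides, was at 9.68 and 9.72 against 11.32 and 10.57, and Polr2g, a subunit of RNA polymerase II, at 9.87 and 9.90 against 12.23 and 10.80, both with replicate 1 further out. Pias1, a SUMO ligase, was at 9.02 and 8.98 against 10.09 and 9.88. Among the lists of carriers and precursors, SLC25 mitochondrial carriers had 5 higher and 1 lower of 16 (median 0.049 over 46), serine, one-carbon and nucleotide synthesis 5 and 4 of 17 (0.135 over 28), and amino acid transporters 4 and 2 of 14 (0.029 over 24). The higher share in each was near the 27.4% of all genes above background, of which 23% were lower.

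**Figure D4:**
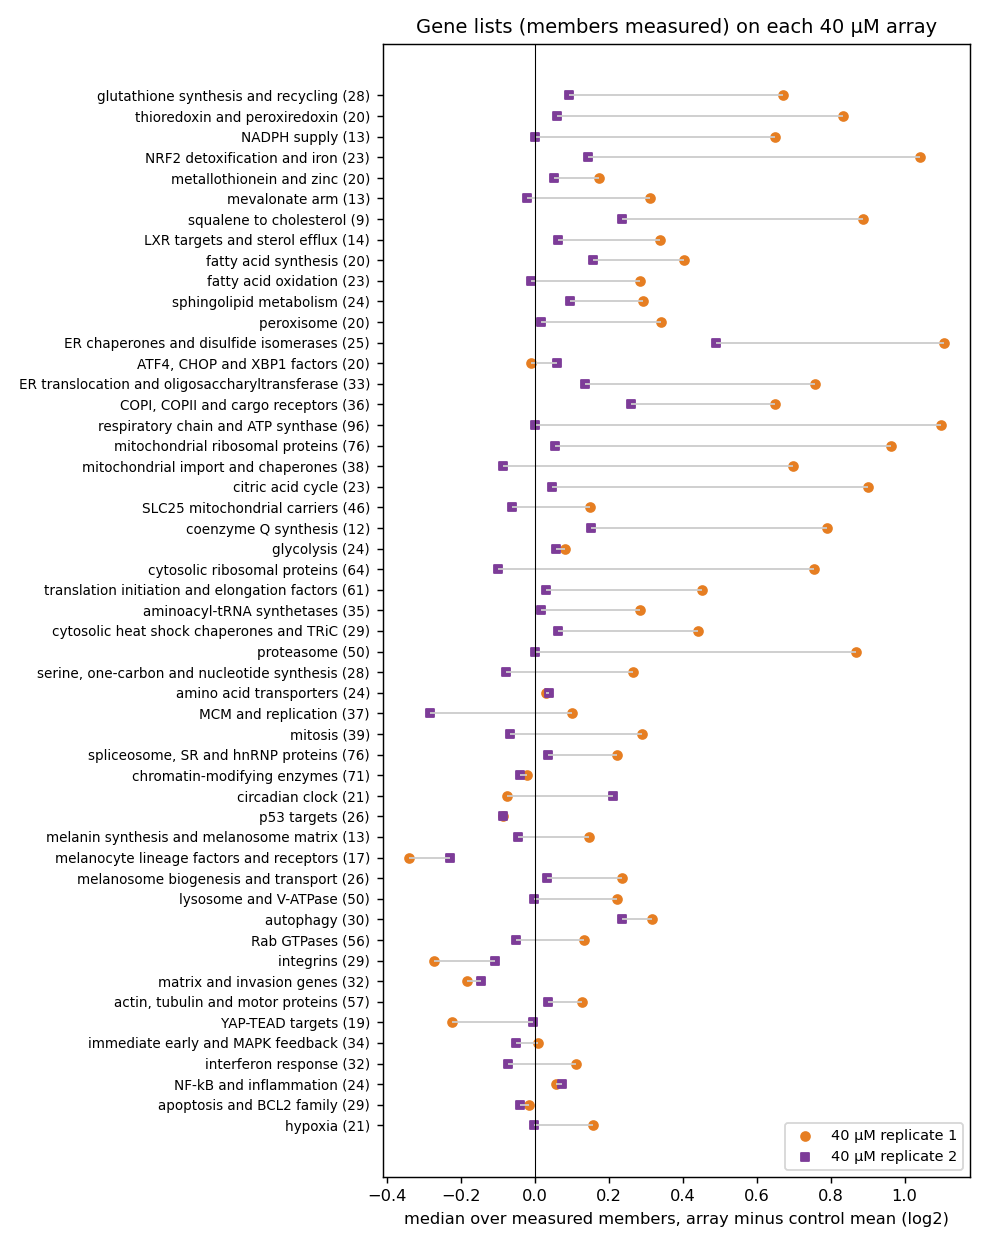
For each gene list, with the number of measured members in brackets, the median difference from the control mean over those members on 40 µM replicate 1 (orange circle) and on replicate 2 (purple square), in log2 units, with a vertical line at 0. For the respiratory chain the points lie at 1.098 and 0.002, for ER chaperones at 1.106 and 0.490 and for melanocyte lineage factors at -0.339 and -0.229.

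The widest gap on the lower side was that of Coq8a, an atypical kinase needed for coenzyme Q synthesis, at 10.37 and 10.49 in the controls and at 9.01 and 9.21 at 40 µM, 2.50-fold lower. Coq3 and Coq5, methyltransferases of the same pathway, were on the other side, at 10.08 and 10.06 against 10.91 and 10.28, and at 11.20 and 11.12 against 12.63 and 11.29. Those 3 were all the coenzyme Q genes above background, and the median over 12 measured members was 0.791 on replicate 1 and 0.151 on replicate 2. Ppargc1a, a coactivator of mitochondrial biogenesis, was lower, at 12.69 and 12.54 against 11.56 and 12.01. Pfkfb3, which makes the activator of glycolytic phosphofructokinase, was at 11.22 and 11.29 against 10.08 and 10.50, while Slc2a1, the glucose transporter, was higher at 13.82 and 13.79 against 14.53 and 14.56. Glycolysis as a list had 7 higher and 2 lower of 16, with a median of 0.078 that was -0.015 after quantile normalization.

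Other genes with the widest lower gaps follow with their known roles. Prickle1, of the planar cell polarity pathway, was at 12.71 and 12.68 in the controls and at 11.79 and 11.51 at 40 µM, a difference of -1.04 (SE 0.19). Cdon, a surface coreceptor for hedgehog ligands, was at 13.34 and 13.29 against 11.43 and 12.45, and Nav2, a neuron navigator protein, at 11.73 and 11.75 against 10.53 and 10.89. Eps8, an actin capping and bundling adaptor, was at 14.01 and 13.99 against 12.84 and 13.21. All of these had both treated arrays well below the controls. Prex2, an exchange factor for RAC, was at 10.11 and 10.02 against 9.24 and 8.76, with replicate 2 the lower. Rap2b, a RAS-like GTPase, was at 14.15 and 14.16 against 12.94 and 13.42, Epha3, an ephrin receptor, at 14.87 and 14.84 against 13.77 and 14.14, and Sdc3, a heparan sulfate proteoglycan, at 10.92 and 11.00 against 10.01 and 10.19. St3gal4, a sialyltransferase of the Golgi, was at 10.70 and 10.90 against 9.61 and 9.83. Masp1, a serine protease of the complement lectin pathway, was at 14.39 and 14.50 against 12.85 and 13.50. Gsdmc, a gasdermin with near-identical copies whose probes may share signal, was at 12.75 and 12.95 against 11.95 and 11.86. Pkia, an inhibitor of protein kinase A, was at 11.11 and 11.02 against 10.22 and 10.31, with its treated arrays close together. Fam76b was at 11.15 and 11.28 against 10.29 and 10.38, and Paxbp1 at 12.27 and 12.29 against 11.41 and 11.57.

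Integrins had 0 higher and 3 lower of 6 above background, beside 27.4% and 23% of all genes above background, with a median over 29 members of -0.273 on replicate 1 and -0.108 on replicate 2. The 3 were Itga4 (16.40 and 16.45 against 15.87 and 15.89), Itgav (11.34 and 11.23 against 10.62 and 10.91) and Itga9 (10.35 and 10.31 against 10.02 and 9.34). Matrix and invasion genes had 2 higher and 3 lower of 9, near those shares, with medians over 32 members of -0.184 and -0.144. The higher ones were Timp3, a metalloproteinase inhibitor, at 10.90 and 10.98 against 11.50 and 11.19, and Mmp14, a membrane metalloproteinase, whose groups were 0.0004 apart. On the lower side, Fn1, fibronectin, was at 10.80 and 10.67 against 9.56 and 9.98, Timp2, another such inhibitor, at 13.54 and 13.51 against 13.16 and 13.10, and Cdh2, N-cadherin, at 12.63 and 12.61 against 11.94 and 12.24. Targets of YAP and TEAD, which report on cell tension, had 1 higher and 5 lower of 11 (medians -0.225 and -0.006 over 19). Ptpn14 and Amotl2, inhibitors of YAP, were at 13.24 and 13.15 against 12.38 and 12.60, and at 10.29 and 10.35 against 9.49 and 9.82. The exception was Ccn1, a matricellular protein, at 13.46 and 13.48 against 14.27 and 14.59. Zyx, zyxin of focal adhesions, was at 12.59 and 12.38 against 11.59 and 11.78, within an actin, tubulin and motor list that had 11 higher and 8 lower of 35 (median 0.068 over 57). That list was near the shares of all genes above background. Pdlim1, a LIM protein of actin fibres, was higher, at 9.56 and 9.66 against 10.96 and 10.60.

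The pigment cell identity of the arrays was clear from high levels of the defining genes in every sample. Pmel, the fibril protein of the melanosome, was at 17.74 and 17.73 in the controls and at 17.88 and 17.86 at 40 µM. Tyrp1 was at 18.97 and 18.92 against 19.21 and 18.88, and Dct at 18.97 on both against 18.91 and 18.93, both near the top of the scale. Tyr was at 14.72 and 14.69 against 14.43 and 14.63, a difference of -0.17 with an interval from -0.61 to 0.26. Melanin synthesis and melanosome matrix genes thus had 3 higher and 4 lower of 11 above background, with a median over 13 members of 0.147 on replicate 1 and -0.045 on replicate 2. The higher share was near the 27.4% of all genes above background, of which 23% were lower. Gpnmb, a melanosomal glycoprotein, was at 18.76 and 18.78 against 18.33 and 18.50, and Tspan10, a tetraspanin of pigment cells, at 13.78 and 13.72 against 12.79 and 13.29.

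In the list of melanocyte lineage factors and receptors, 0 of 7 members above background were higher, 3 were lower and 4 overlapped, beside 23% lower among all genes above background, with medians over 17 members of -0.339 on replicate 1 and -0.229 on replicate 2. Mitf, the master factor of the lineage, was at 16.03 and 15.95 in the controls and at 15.10 and 15.51 at 40 µM, a difference of -0.68 (SE 0.18; limma, adjusted p = 0.349). Tfap2a, a neural crest and melanocyte factor, was at 13.71 and 13.54 against 13.15 and 13.17, and Met, the receptor of hepatocyte growth factor, at 14.52 and 14.55 against 13.87 and 14.27. Melanosome transport was mixed, with 7 higher and 6 lower of 15 (median 0.140 over 26). Mlph and Rab27a, partners that tether melanosomes to actin, were at 13.29 and 13.19 against 12.32 and 12.41, and at 15.34 and 15.50 against 14.74 and 15.04. Rab38 and Bloc1s1, which act earlier in sorting to melanosomes, were higher, at 15.05 and 15.04 against 15.79 and 15.45, and at 9.09 and 9.29 against 11.23 and 9.86. Cited1, whose protein is a coactivator found in melanocytes, was at 9.39 and 9.64 against 12.12 and 10.81.

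Among nuclear genes, the replication list held more lower than higher genes. Of 18 members above background, 8 were lower and 1 higher, beside 23% lower and 27.4% higher among all genes above background. The median over 37 members was 0.101 on replicate 1 and -0.283 on replicate 2. The list median thus differed in sign between the treated arrays. Mcm2, Mcm4 and Mcm5, subunits of the replicative helicase, were at 14.88 on both controls against 14.57 and 14.40, at 10.41 and 10.25 against 10.02 and 10.04, and at 11.74 on both against 11.27 and 11.49. Brca2, of homologous recombination, was at 12.23 and 12.14 against 11.02 and 11.42, and Incenp, of the chromosomal passenger complex, at 11.03 and 11.09 against 10.28 and 10.18. Mki67, a marker of cycling cells, was at 15.99 and 15.96 against 15.56 and 15.59. Ube2c, the ubiquitin-conjugating enzyme of mitotic exit, was higher, at 11.70 and 11.78 against 12.63 and 12.23. The mitosis list had 7 higher and 6 lower of 31, near those shares of all genes. Chromatin-modifying enzymes had 7 higher and 12 lower of 38, with a median of -0.024 that was 0.012 after median centring. Setd7, a lysine methyltransferase, was at 11.91 and 11.98 against 11.46 and 11.52, and Prmt3, an arginine methyltransferase, at 11.30 on both against 10.44 and 10.82. Splicing proteins had 18 higher and 14 lower of 57, also near those shares. Srsf2 was at 11.21 and 11.24 against 12.59 and 11.60, and Srsf4 at 10.91 and 11.07 against 10.55 and 10.32. Maf1, the repressor of RNA polymerase III, was at 11.56 and 11.58 against 9.74 and 10.77.

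For the lists that follow, the shares among all genes above background were 27.4% higher and 23% lower. The clock list had 1 higher and 3 lower of 7. Dbp, an output gene of the clock, was at 10.66 and 10.63 against 13.51 and 11.21, and Bhlhe41, a clock repressor, at 14.28 and 14.23 against 13.49 and 13.68. Targets of p53 had 2 higher and 2 lower of 10 (median -0.049 over 26). Cdkn1a, the p21 inhibitor, overlapped at 14.32 and 14.30 against 14.49 and 14.21, with an interval from -0.48 to 0.56, and so did Myc, at 14.08 and 14.09 against 13.88 and 14.20. Apoptosis genes had 1 higher and 4 lower of 13 (median -0.014 over 29), with Apaf1 of the apoptosome at 10.65 and 10.68 against 10.40 and 10.33. Autophagy genes had 8 higher and 1 lower of 14, with medians over 30 members of 0.317 and 0.235 that were close on the 2 treated arrays. Sqstm1, the p62 receptor, was at 16.21 on both controls against 16.54 and 16.69, and Atg12, a ubiquitin-like conjugation factor, at 9.73 and 9.70 against 10.80 and 10.06. Lysosome and V-ATPase genes had 9 higher and 2 lower of 34 (median 0.117 over 50), and Rab GTPases 8 and 5 of 24 (0.030 over 56). Hypoxia genes had 5 higher and 2 lower of 13 (median 0.023 over 21), with Vegfa, the endothelial growth factor, at 13.36 and 13.48 against 12.57 and 13.09. Immediate early and MAPK feedback genes had 3 higher and 2 lower of 11 (median -0.003 over 34). Dusp4, a phosphatase of that feedback, was at 11.80 on both controls against 11.28 and 11.25. Interferon response genes had 0 higher and 1 lower of 3, and NF-kB genes 1 and 1 of 3.

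The antioxidant response element gave a different picture from the ER stress element. Its letters TGACNNNGC, on either strand, stood in 166 of 981 promoters of separated genes higher at 40 µM (16.9%), in 143 of 835 of those lower (17.1%), in 606 of 3605 above background (16.8%) and in 2354 of all 15691 (15.0%). The short form of the element is thus about as frequent in each of these groups. Only genes whose window held these letters could be shown. Srxn1, Pgd and Osgin1, with wider gaps than Txnrd1, are not among the genes shown. The element is in capitals for Mt2, Txnrd1 and Gclm, redox or metal genes described above, on the strand of the gene. In Txnrd1 and Gclm it lies on the opposite strand.
Mt2: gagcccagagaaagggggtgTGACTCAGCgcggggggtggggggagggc
Txnrd1: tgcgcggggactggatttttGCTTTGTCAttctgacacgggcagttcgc
Gclm: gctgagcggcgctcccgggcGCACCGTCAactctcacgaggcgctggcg
These stretches are chr8:94172519-94172567 for Mt2, chr10:82859094-82859142 for Txnrd1 and chr3:122245403-122245451 for Gclm, all on the plus strand (GRCm38.p6). The cyclic AMP element TGACGTCA was in 44 of 981 promoters of higher genes (4.49%), 25 of 835 of lower genes (2.99%) and 140 of 3605 above background (3.88%). The sterol element TCACNCCAC was in 17 (1.73%), 11 (1.32%) and 53 (1.47%), and the E-box CACGTG in 116 (11.8%), 100 (12.0%) and 456 (12.6%).

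At 2.5 µM, most separated genes did not lie on the far side of the controls. Both 2.5 µM arrays were on the side of the controls opposite to the 40 µM arrays in 48 of the 1186 higher genes and in 83 of the 996 lower genes. Srxn1 was such a gene, at 9.63 and 9.57 at 2.5 µM, as was Gclm, at 12.79 and 12.66, both below their controls. Lhfpl2, a tetraspan membrane protein, had nearly the same level at both doses, 11.52 and 11.48 at 2.5 µM and 11.51 and 11.47 at 40 µM, against 10.50 and 10.52 in the controls. Fryl was at 10.50 and 10.91 at 2.5 µM and at 10.85 and 10.52 at 40 µM, against 9.18 and 9.40. These comparisons share the control arrays.

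Markers of other cell types were at background. Of 8 measured fibroblast, 9 keratinocyte, 7 leukocyte and 8 endothelial markers, 0 exceeded the background level in either group, and the highest control mean among them was 7.03. As these are bulk arrays, fewer cells of a kind and less RNA per cell cannot be told apart. Gapdh was at 18.40 and 18.44 in the controls and at 18.50 and 18.51 at 40 µM, and Actb at 19.37 and 19.42 against 19.11 and 19.31.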

How the data were processed

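The authors deposited log2 expression values. According to the submitters' processing notes these came from RMA, with Affymetrix Expression Console and Transcriptome Analysis Console also named, without versions. Labels and array protocol differ in the RNA input and in the array type that the feature names imply, and 259 to 269 features per array exceed 16, the maximum of a 16-bit scanner on the log2 scale, and the reason is not given in the sources used here. Folds are on the deposited scale. The genome build is not given in the sources used here.

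Of 22206 transcript clusters, 19572 had 1 symbol in the platform annotation, 0 several and 2634 none. For 55 genes with several clusters the one with the highest mean over the 6 arrays was kept, leaving 19505 genes, all of whose symbols matched RefSeq (GRCm38.p6). Arrays have no read depth, and 2 per group limit the precision. limma 3.58.1 (R 4.3.3) was fitted to all 6 arrays with group means and a variance trend, two-sided, with Benjamini-Hochberg adjustment (3 residual degrees of freedom, prior 4.11), and was tested on simulated data. SE and confidence intervals (95%) come from it. Separation was counted without a test.

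Members, the 55 gene lists (1679 of 1750 genes measured, 14 by an older symbol) and the alternatives were chosen with earlier results of these data known. Named genes are, in each direction, the 20 with the widest gap among separated genes above background (39 predicted models were passed over), up to 3 per list, and fixed genes given whatever their values. Genes with the ER stress element and Nemf, Taf5l, Canx, Pan2, Timp3 and Mmp14 were named after their values were seen. Same-numbered arrays are not known to be paired: replicate 1 deviations correlated at -0.012 between control and 40 µM, at -0.0045 between control and 2.5 µM and at 0.386 between 2.5 and 40 µM. Alternatives covered scaling, probe sets, background level, blocks, variance prior and leaving out each array.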

Additional observations from a re-analysis of the deposited data

Results flagged for a closer look

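For 13 of 185 named genes, both 2.5 µM arrays lay on one side of both controls and both 40 µM arrays on the other, as in 131 of all 2182 separated genes (6.0%), so that the share among named genes is near that of separated genes. None of these differences between doses passed limma with Benjamini-Hochberg adjustment over 19505 genes, where the smallest adjusted p of any gene was 0.132. As log2 level at 40 µM minus that at 2.5 µM, Srxn1, sulfiredoxin, was higher by 2.21, Gclm, of glutathione synthesis, by 1.38 and Me1, malic enzyme, by 0.81. Sqstm1, the p62 autophagy receptor, was higher by 0.56, Ccn1, a matricellular protein, by 1.16 and Farsb, a phenylalanyl-tRNA synthetase subunit, by 0.55. The replicative helicase subunits Mcm4 and Mcm5 had differences of -0.47 and -0.58, and the phosphatase Dusp4 one of -0.77. St3gal4, a sialyltransferase, had -1.50, Prickle1, of planar cell polarity, -1.34, Gsdmc, a gasdermin with near-identical copies, -1.23, and Dct, a melanin enzyme near the top of the scale, -0.12.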

How the results depend on the processing

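The 2 arrays per group and the distance between the 40 µM arrays limit every value given. With the replicate number as a block, 0 genes passed the adjusted threshold, and 1495 were higher and 1392 lower at the unadjusted one; no call changed. No gene passed the adjusted threshold in any alternative (limma) except without 40 µM replicate 2, which gave 2235, so leaving out an array gave 0 to 2235. Leaving out an array gave 231 to 3222 higher and 396 to 2773 lower genes at the unadjusted threshold, 1404 to 2575 separated genes higher and 1178 to 1906 lower, and 16 to 789 higher and 6 to 92 lower with 2-fold. Fewer arrays are easier to separate by construction, and the genes above background were taken anew from the arrays left. With only genes above background in the fit, 203 were higher and 239 lower at the unadjusted threshold, from fewer genes tested. With the 99th percentile of negative controls, 193 separated genes were higher and 249 lower, 19 and 1 with 2-fold. Quantile normalization gave 63 higher and 30 lower with 2-fold. Of 2577 alternative values for named genes, the only ones that became calls came without 40 µM replicate 2, and 11 turned sign. These were Cdkn1a (-0.157 with the array split as a block, -0.098 without 40 µM replicate 1), Ddit3 (-0.045 and -0.100), Myc (0.037 and 0.112), each likewise, Gapdh (-0.007) and Tapbp (0.043) with the array split, Tyrp1 (-0.000 after quantile normalization, -0.068 without replicate 1) and Hmox1 (-0.288 without replicate 2). Of 55 list medians, 42 were above 0, and 36 after quantile normalization, 46 after median centring and 29 without 40 µM replicate 1. The numbers that turned sign were 6, 4 and 12, and 1, 2 and 4 without control replicate 1, control replicate 2 and 40 µM replicate 2. Without 40 µM replicate 1 these included the mevalonate arm (-0.020), fatty acid oxidation (-0.011), mitochondrial import (-0.085), cytosolic ribosomal proteins (-0.099), SLC25 carriers (-0.061) and mitosis (-0.068). After quantile normalization they included metallothionein and zinc (-0.026), glycolysis (-0.015) and ATF4, CHOP and XBP1 factors (-0.049), and after median centring chromatin (0.012). Over the 4 arrays left out in turn, these values ran from -0.098 to 0.185 for Cdkn1a, -0.100 to 0.25 for Ddit3, -0.204 to 0.112 for Myc, -0.068 to 0.264 for Tyrp1, -0.288 to 0.768 for Hmox1, -0.020 to 0.407 for the mevalonate arm and -0.011 to 0.326 for fatty acid oxidation. The cause was not tested.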
